A study of Mus musculus with 6 samples.

Results

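Complement and coagulation factors were examined in the liver of Mir137-/- mice and their Mir137+/+ counterparts, killed at postnatal day 14, as a list of 46 genes chosen by their place in these plasma cascades. The list held 25 complement genes and 21 coagulation genes. Of these, 41 (21 complement and 20 coagulation genes) had a probe set naming that gene alone and were measured among 18193 genes in all. Each was read by its brightest such probe set. C3, Cfd, C7 and Cpb2 matched no named probe set, C4b was read only by a probe set that also names C4a, and these 5 genes were not analysed here. Mir137-/- mice carried a germline deletion of miR-137 in every tissue. The deletion was made in embryonic stem cells of a strain other than that of the C57BL/6 blastocysts that received them, and Mir137+/+ mice came from the same matings of heterozygous parents. The livers received no treatment. Total RNA of 3 livers per genotype was hybridised to one-colour Affymetrix arrays, each mouse on 1 array, and the comparison asked how the hepatic transcriptome differed without miR-137. Because the deletion was present in the whole body from conception, effects arising in the liver and in other organs cannot be told apart. The paper reports that Mir137-/- mice were severely growth retarded at this age. It also reports lower blood glucose after fasting and lower body temperature. Differences that go with this state of the mice and direct effects of the deletion cannot be told apart either.

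The microRNA that was deleted yields a pair of mature strands. They are shown because their loss is the only labelled difference between the genotypes, and the capitals mark the seed, bases 2 to 8. The sequences were taken from RefSeq (GRCm38.p6) and lie on the plus strand of chromosome 3 at chr3:118433901-118433923 for the 3p strand and chr3:118433865-118433887 for the 5p strand.
mmu-miR-137-3p: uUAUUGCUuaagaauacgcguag
mmu-miR-137-5p: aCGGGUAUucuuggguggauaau

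Complement is a cascade of plasma proteins that tags and lyses microbes. It is started by antibody (classical pathway), by sugars on a surface (lectin pathway) or by slow spontaneous turnover (alternative pathway), and it ends in a pore, the membrane attack complex, built from the late components. Coagulation is a parallel cascade of serine proteases that ends in thrombin and the fibrin clot, and several of its proteases need vitamin K for their carboxylation. Hepatocytes make and secrete most proteins of both systems, so transcript levels in the liver describe their main site of synthesis and not their amount in plasma.

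Some properties of the arrays bear on all values. The tissue label fitted the signal of Alb, which encodes albumin and lay near the highest value of the arrays, 13.79. Alb measured 13.71 to 13.74 in Mir137-/- livers and 13.73 to 13.79 in Mir137+/+ livers (log2 signal). Between the genotypes, none of 9 hepatocyte markers was called, with 5 differences negative and 4 positive. Tdo2 among them was lower by less than 1.5-fold (-0.46, limma adjusted p = 0.0250). The methods name male mice, but Xist, a transcript of female cells, measured 10.91 and 10.81 in Mir137+/+ replicates 2 and 3 against 3.66 to 4.24 on the other 4 arrays, so sex was not balanced between the genotypes. Markers of exocrine pancreas stood out in replicate 2 of both genotypes, with a log2 summed signal of 11.83 in the Mir137-/- liver and 10.64 in the Mir137+/+ liver against 8.31 to 8.70 on the other arrays. Markers of skeletal muscle summed to 12.43 in Mir137-/- replicate 1 against 7.77 to 8.12 elsewhere. These arrays were left out in turn, and the values are given beside the results they touch. In whole liver, fewer cells of a type and less RNA per cell cannot be told apart. With 3 arrays against 3, an exact permutation test cannot go below p = 0.1, so p-values below come from the limma fit across all genes. That fit sets each difference against the spread between mice of one genotype, moderated towards the spread of all genes.

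Transcripts of 7 complement genes were lower in Mir137-/- livers than in Mir137+/+ livers, those of no complement gene were higher, and no coagulation gene was called in either direction. The 7 genes were C9, C8b and C8a of the membrane attack complex, Mbl1, Mbl2 and Masp1 of the lectin pathway, and C4bp, an inhibitor of the classical and lectin pathways. Masp1 was called on its brightest probe set, and its probe sets differed in direction. A call required an adjusted p below 0.05 and a difference of more than 1.5-fold. Over all 18193 genes, 3.34% were called lower and 2.34% were called higher by this rule. The 7 called genes made up 33.3% of the measured complement genes and 17.1% of all 41 members. Of all genes, 6403 lay below the array median of about 4.9 in both genotypes, and 0 of the 41 members did. The share called lower was 14.8% of 27 other hepatocyte plasma proteins and 19.0% of 21 transcription and cytokine regulators. It was 4.55% of 22 other complement genes and 8.33% of 24 other coagulation and fibrinolysis genes. Without the fold threshold, 8 complement genes were lower and 1 was higher, and 2 coagulation genes were lower, against a background of 6.9% lower and 5.06% higher. At an unadjusted p below 0.05 the limma fit gave 1 higher and 4 lower coagulation genes among 20, against 12.2% of all genes higher and 14.6% lower. Most differences among the remaining members were small. Across the 41 members, 31 differences were negative and 10 positive with a median of -0.10 on the log2 scale, where the median of all genes was 0.00. The median was -0.10 over complement and -0.09 over coagulation. The paper's gene set enrichment analysis, by contrast, lists complement among the hallmark sets with positive enrichment in Mir137-/- livers. That gene set was not examined here, so its members and the list above were not compared.

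**Figure D1:**
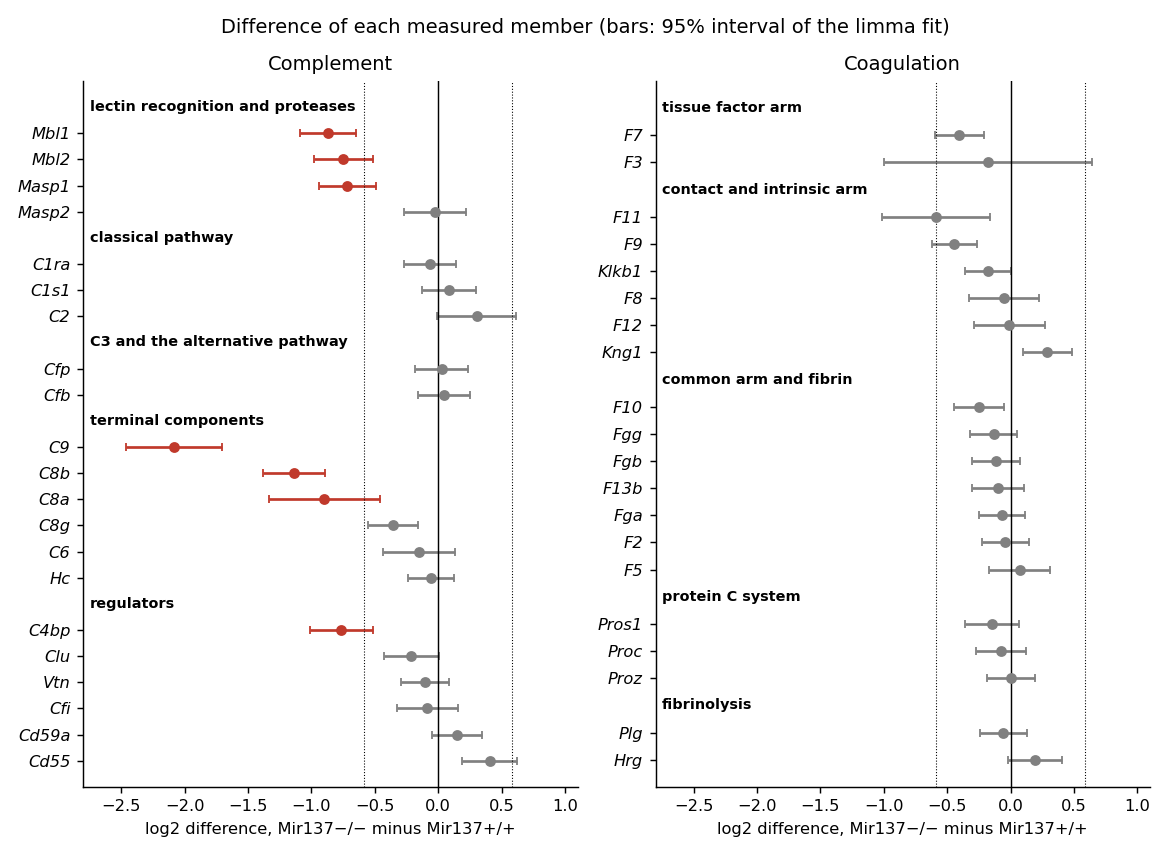
Log2 difference of Mir137-/- minus Mir137+/+ for each of the 41 measured genes, grouped by step of the cascades. Points are limma estimates, bars are 95% confidence intervals, dotted lines mark 1.5-fold, and the 7 called genes, drawn in red, run from C9 at -2.08 to Masp1 at -0.72.

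In the lectin pathway, 3 of 4 genes were lower in Mir137-/- livers, Masp1 on its brightest probe set alone, with a median difference of -0.73. Mbl1 encodes mannose-binding lectin A, which binds sugars on microbial surfaces (chr14:41151456-41163904). It measured 9.32, 9.58 and 9.40 in Mir137-/- livers, against 10.26, 10.32 and 10.33 in Mir137+/+ livers. All 3 knockout arrays lay below every wild-type array, and the difference was -0.87 (SE 0.09, adjusted p = 0.00164), or 1.83-fold. Mbl2 encodes mannose-binding lectin C, the other mouse protein of this kind (chr19:30232906-30239687). Its values were 11.12, 10.82 and 11.06 in Mir137-/- livers, against 11.70, 11.80 and 11.74 in Mir137+/+ livers. The groups were separate, with Mir137-/- replicate 2 lowest, and the difference was -0.75 (SE 0.10, adjusted p = 0.00384), or 1.68-fold.

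Of the 2 proteases that travel with these lectins, 1 was called. Masp1 encodes a protease of the lectin complexes (chr16:23451785-23521240), and its brightest probe set measured 9.33, 9.12 and 9.33 in Mir137-/- livers, against 10.05, 10.00 and 9.88 in Mir137+/+ livers. The groups did not overlap, and the difference was -0.72 (SE 0.10, adjusted p = 0.00378), or 1.64-fold. Masp2 encodes the protease that cleaves C4 and C2. It measured 9.47, 9.50 and 9.41 in Mir137-/- livers, against 9.50, 9.31 and 9.65 in Mir137+/+ livers, and the groups overlapped (difference -0.03, adjusted p = 0.906).

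The probe sets of Masp1 differed in direction. The gene is known to give several products by alternative splicing, among them the proteases MASP-1 and MASP-3, and which product each of the 5 probe sets reads was not determined here. Only the brightest carried a transcript accession listed for the gene by RefSeq. The second probe set measured 9.19, 9.28 and 9.12 in Mir137-/- livers, against 8.94, 8.83 and 8.82 in Mir137+/+ livers. There the knockout arrays were all higher, with a difference of 0.33 that did not pass the test across all probe sets (SE 0.10, adjusted p = 0.0726), of which 2.58% were called lower and 1.94% higher. The third probe set measured 8.80, 8.72 and 8.81 in Mir137-/- livers, against 8.59, 8.53 and 8.54 in Mir137+/+ livers, again with separate groups (0.22, adjusted p = 0.182). The other 2 gave -0.15 and -0.05, and the mean of all 5 differed by -0.07. The call on Masp1 therefore holds for its brightest probe set alone.

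**Figure D2:**
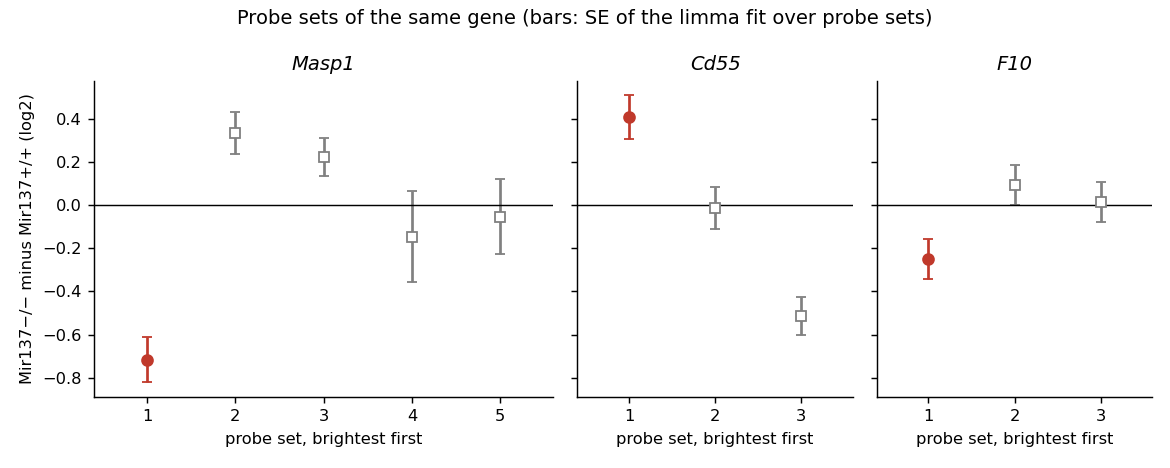
Log2 difference of Mir137-/- minus Mir137+/+ for every probe set of Masp1, Cd55 and F10, ordered from brightest to dimmest. Filled circles mark the probe set that stands for the gene, open squares the others, and bars are the SE of a limma fit over all probe sets; the brightest of Masp1 lies at -0.72 and the second at 0.33.

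All 6 measured terminal components had a negative difference, and 3 were called, with a median of -0.63. C9 gave the largest change of the 41 members. It encodes the subunit that polymerises into the lytic pore (chr15:6445346-6498825). It measured 8.16, 8.79 and 8.37 in Mir137-/- livers, against 10.68, 10.43 and 10.46 in Mir137+/+ livers. The highest knockout array, replicate 2, was still well below the lowest wild-type array. The difference was -2.08 (SE 0.16, 95% interval -2.46 to -1.71, adjusted p = 4.82e-04), or 4.24-fold, and the group means were 8.44 ± 0.32 in Mir137-/- livers and 10.52 ± 0.14 in Mir137+/+ livers (SD, n = 3 each).

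C8 is assembled from alpha, beta and gamma chains, and the genes of all 3 chains had an adjusted p below 0.05 in the limma fit over genes. C8b, which encodes the beta chain (chr4:104766317-104804548), measured 8.39, 8.36 and 8.23 in Mir137-/- livers, against 9.56, 9.28 and 9.55 in Mir137+/+ livers. The groups were clearly apart, by -1.14 (SE 0.11, adjusted p = 0.00102) or 2.20-fold. C8a, which encodes the alpha chain (chr4:104815679-104876487), measured 9.59, 9.08 and 9.91 in Mir137-/- livers, against 10.47, 10.41 and 10.39 in Mir137+/+ livers. The knockout arrays were lower and far more scattered than the wild-type arrays, with a difference of -0.90 (SE 0.19, adjusted p = 0.0221) or 1.86-fold. This call was the least firm of the 7, and it was lost when any wild-type array or Mir137-/- replicate 1 was left out (adjusted p 0.0518 to 0.0736), while the difference stayed between -0.93 and -0.87. C8g, the gene of the gamma chain and the only one of the 3 outside the chromosome 4 pair, measured 11.42, 11.43 and 11.54 in Mir137-/- livers, against 11.85, 11.75 and 11.86 in Mir137+/+ livers. Here too the groups were separate and the adjusted p was 0.0328, but the difference of -0.36 (SE 0.08) stayed under 1.5-fold. In the limma fit across all probe sets the adjusted p of C8g was 0.0539.

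The earlier terminal components differed little. C6, whose product binds C5b first, measured 6.93, 7.25 and 6.91 in Mir137-/- livers, against 7.20, 7.04 and 7.31 in Mir137+/+ livers, with overlapping groups (-0.15, adjusted p = 0.483). Hc, the mouse gene of C5, measured 11.84, 11.84 and 11.77 in Mir137-/- livers, against 11.90, 11.90 and 11.82 in Mir137+/+ livers. Its groups overlapped as well (-0.06, adjusted p = 0.710).

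**Figure D3:**
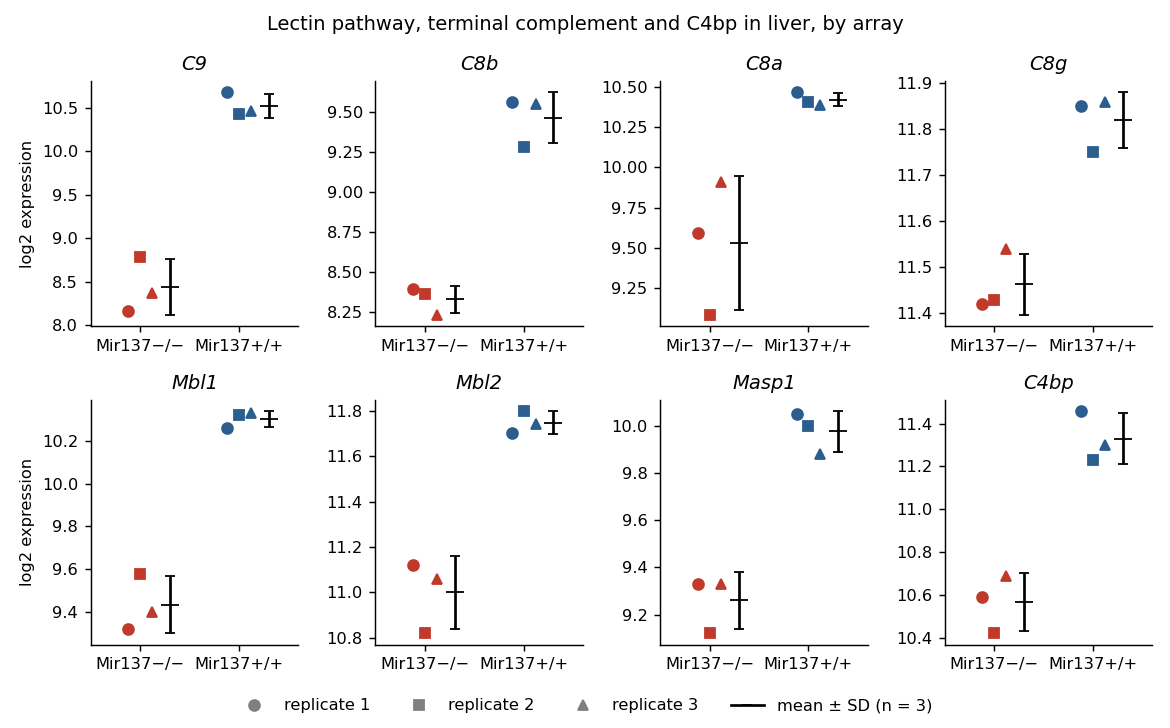
Log2 signal of the 7 called genes and of C8g on each array, Mir137-/- livers to the left and Mir137+/+ livers to the right in each panel, with black bars for mean ± SD (n = 3) and an axis of its own for each gene. In no panel do the genotypes overlap, and the spread of C8a in Mir137-/- livers (9.08 to 9.91) exceeds that in Mir137+/+ livers (10.39 to 10.47).

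The promoters of C9, C8b, C8a and C4bp are shown because they are the called genes whose window held a searched motif. Capitals mark matches to motifs of factors that act on liver and acute phase genes. Mbl1 and Mbl2 were also called lower, and their windows, which held no match, are not shown. Each is the 250 bases before the start used in the promoter table, 5' to 3' on the strand of the gene, from RefSeq (GRCm38.p6). For C8a and C4bp that start lies inside the gene bounds given here, so that 89 and 39 bases of their windows fall within those bounds. C9 is at chr15:6445096-6445345 (plus), C8b at chr4:104766067-104766316 (plus), C8a at chr4:104876399-104876648 (minus) and C4bp at chr1:130661619-130661868 (minus).
C9: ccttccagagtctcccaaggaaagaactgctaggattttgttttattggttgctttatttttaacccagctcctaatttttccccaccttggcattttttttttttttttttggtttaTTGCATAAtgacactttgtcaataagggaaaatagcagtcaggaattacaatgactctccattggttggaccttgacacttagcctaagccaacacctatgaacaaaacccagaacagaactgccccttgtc
C8b: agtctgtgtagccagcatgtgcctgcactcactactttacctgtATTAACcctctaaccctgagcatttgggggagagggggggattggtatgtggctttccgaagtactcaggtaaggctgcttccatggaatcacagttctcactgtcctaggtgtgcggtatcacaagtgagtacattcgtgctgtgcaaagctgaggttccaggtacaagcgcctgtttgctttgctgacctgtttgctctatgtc
C8a: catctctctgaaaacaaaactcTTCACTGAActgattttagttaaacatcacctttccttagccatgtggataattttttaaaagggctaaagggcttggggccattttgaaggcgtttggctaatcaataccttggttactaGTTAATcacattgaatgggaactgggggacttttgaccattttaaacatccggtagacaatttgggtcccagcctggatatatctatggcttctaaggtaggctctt
C4bp: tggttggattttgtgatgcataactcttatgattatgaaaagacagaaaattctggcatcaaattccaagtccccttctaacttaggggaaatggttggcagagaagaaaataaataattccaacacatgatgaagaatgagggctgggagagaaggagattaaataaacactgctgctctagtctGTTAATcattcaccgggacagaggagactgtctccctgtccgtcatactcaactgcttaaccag

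The motifs searched, on both strands, were GTTAAT for an HNF1 site (one arm of the palindrome), TTGCNNAA for C/EBP and TTCNNNGAA for STAT. The HNF1 letters were found in C8b, C8a and C4bp with their first base 206, 107 and 64 bases before that start, the C/EBP letters in C9 at 132 bases, and the STAT letters in C8a at 228 bases. The windows of Mbl1 and Mbl2 held none of the 3 motifs. Of 32851 promoters in the table, 6.43% held the HNF1 letters, 9.56% the C/EBP letters and 7.02% the STAT letters. Of the 33 members with a promoter in the table, 11 held the HNF1 letters, 8 the C/EBP letters and 6 the STAT letters, and of the 6 called genes among them 3, 1 and 1 did. These matches describe the letters in a window and not binding.

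Among 6 regulators of complement, C4bp was lower, and Cd55 was raised on its brightest probe set by less than the fold threshold. C4bp encodes the binding protein that helps to inactivate C4b (chr1:130635921-130661657). It measured 10.59, 10.42 and 10.69 in Mir137-/- livers, against 11.46, 11.23 and 11.30 in Mir137+/+ livers. All knockout arrays were below all wild-type arrays, by -0.76 (SE 0.11, adjusted p = 0.00413) or 1.70-fold. Cd55 encodes decay-accelerating factor, a membrane protein that takes apart the C3 convertases. It measured 7.32, 7.32 and 7.54 in Mir137-/- livers, against 6.95, 7.03 and 6.98 in Mir137+/+ livers. The groups were separate in the upward direction (0.41, SE 0.09, adjusted p = 0.0301), but the direction did not hold over its probe sets. The second gave -0.01, and the third measured 5.42, 5.51 and 5.53 in Mir137-/- livers, against 5.99, 6 and 6.01 in Mir137+/+ livers, a difference of -0.51 in the other direction (adjusted p = 0.0115 across probe sets).

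The remaining regulators did not pass the test. Clu, which encodes clusterin, an inhibitor of the assembling pore, differed by -0.21 (adjusted p = 0.194), and its 4 probe sets gave -0.21 to -0.13. Vtn, the gene of vitronectin, another inhibitor of the pore, differed by -0.10, Cfi, the protease that degrades C3b and C4b, by -0.09, and Cd59a, which blocks C9 insertion into the cell's own membrane, by 0.15.

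None of the measured genes of the classical and alternative pathways was called, and C3, C4b and the protease gene Cfd were not measured. C2, the protease subunit of the classical and lectin C3 convertase, showed the largest of these differences. It measured 9.45, 9.90 and 9.42 in Mir137-/- livers, against 9.33, 9.28 and 9.25 in Mir137+/+ livers. The knockout arrays were all higher, with replicate 2 the highest, but the difference of 0.30 (SE 0.14, adjusted p = 0.200) did not pass the test. Its 3 probe sets gave 0.30, 0.32 and 0.28. Cfb, the homologous subunit of the alternative pathway, measured 11.68, 11.55 and 11.71 in Mir137-/- livers, against 11.65, 11.53 and 11.62 in Mir137+/+ livers, and the groups overlapped (0.05, SE 0.09, adjusted p = 0.787). C1ra and C1s1, the proteases of the C1 complex, differed by -0.06 and 0.09, and Cfp, the gene of properdin, which stabilises the alternative convertase, by 0.03. Cfp measured 8.52, 8.68 and 8.52 in Mir137-/- livers, against 8.47, 8.61 and 8.56 in Mir137+/+ livers. The groups overlapped, and its second probe set gave -0.06. C1ra, C1s1, Cd55 and Cd59a each have a close mouse paralog, so their signals can include it.

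In coagulation, the differences of the 20 measured genes ran from -0.59 to 0.29. F9 and F7, the vitamin K-dependent factors IX and VII, were lower with tight groups. F9 measured 10.55, 10.57 and 10.56 in Mir137-/- livers, against 11.01, 10.98 and 11.02 in Mir137+/+ livers. No array of one genotype came near the other, and the difference was -0.44 (SE 0.08, adjusted p = 0.0101), under 1.5-fold. F7, whose product starts clotting together with tissue factor, measured 9.62, 9.57 and 9.45 in Mir137-/- livers, against 9.95 on each of the 3 arrays of Mir137+/+ livers. All knockout arrays were lower (-0.40, SE 0.08, adjusted p = 0.0210). F11, the gene of factor XI, which activates factor IX, was past 1.5-fold without passing the test. It measured 9.78, 9.15 and 9.87 in Mir137-/- livers, against 10.27, 10.07 and 10.23 in Mir137+/+ livers. The groups were separate, but Mir137-/- replicate 2 lay far below the other knockout arrays, and the difference was -0.59 (SE 0.18, adjusted p = 0.0792).

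The other genes of the contact and tissue factor arms differed less, or with more scatter. Kng1, the gene of kininogen, the source of bradykinin, measured 12.74, 12.82 and 12.84 in Mir137-/- livers, against 12.53, 12.56 and 12.44 in Mir137+/+ livers. The groups were separate and the knockout arrays higher, at 0.29 (adjusted p = 0.0612), and Kng2 is a close paralog. Klkb1, the gene of plasma prekallikrein, differed by -0.18, F8, the cofactor of factor IX, by -0.05, and F12, the contact factor XII, by -0.01. F3, the gene of tissue factor, measured 4.59, 5.22 and 6.14 in Mir137-/- livers, against 5.14, 5.62 and 5.72 in Mir137+/+ livers. Its values were scattered and overlapping, and the interval of the difference ran from -0.996 to 0.64. F3 also lies 3.29 Mb from Mir137 on chromosome 3.

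The genes of prothrombin and fibrinogen differed by small amounts. F2, the gene of prothrombin, measured 12.61, 12.56 and 12.51 in Mir137-/- livers, against 12.60, 12.58 and 12.62 in Mir137+/+ livers (-0.04, 95% interval -0.22 to 0.14). The fibrinogen chain genes Fga, Fgb and Fgg differed by -0.07, -0.11 and -0.13, with intervals of -0.25 to 0.11, -0.30 to 0.07 and -0.32 to 0.05. For all 3 chains every Mir137-/- array lay below every Mir137+/+ array, as for Fga at 12.99 to 13.04 in Mir137-/- livers and 13.06 to 13.12 in Mir137+/+ livers. The intervals of the 4 genes exclude a difference of 1.5-fold in array signal in either direction. The same held for 16 of the 20 coagulation genes, and the exceptions were F3, F7, F9 and F11. Signals of the 4 genes lay high in the range of the arrays, which ended at 13.79. Whether signal that high still follows transcript amount in proportion was not tested, so the intervals bound the signal and not the transcript. F5, the cofactor of factor X, differed by 0.07, and F13b, the carrier subunit of the clot-stabilising factor XIII, by -0.10. F10, the gene of factor X, measured 10.97, 11.16 and 11.06 in Mir137-/- livers, against 11.31, 11.31 and 11.32 in Mir137+/+ livers. The groups were separate (-0.25, SE 0.09, adjusted p = 0.103), while its other 2 probe sets gave 0.09 and 0.01.

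The anticoagulant and fibrinolytic genes also stayed within 1.5-fold. Pros1, the gene of protein S, a cofactor of activated protein C, measured 8.48, 8.68 and 8.48 in Mir137-/- livers, against 8.77, 8.65 and 8.66 in Mir137+/+ livers, with overlapping groups (-0.15, SE 0.09, adjusted p = 0.372). Proc, the gene of protein C, differed by -0.08, and Proz, the gene of protein Z, by 0.00. Proz measured 11.07, 10.91 and 11 in Mir137-/- livers, against 10.98, 11.01 and 10.98 in Mir137+/+ livers. The groups overlapped, and its second probe set gave -0.05. Hrg, the gene of a plasma glycoprotein that binds heparin and plasminogen, measured 12.53, 12.44 and 12.47 in Mir137-/- livers, against 12.40, 12.17 and 12.29 in Mir137+/+ livers. The knockout arrays were higher (0.19, SE 0.09, adjusted p = 0.226), and Plg, the gene of plasminogen, differed by -0.06. Of the 7 vitamin K-dependent members, none was called, F7 and F9 passed on adjusted p alone, and the median was -0.15.

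The values varied between arrays as well as between genotypes. The genotypes did not overlap for 23 of the 41 members (56.1%), lower in Mir137-/- livers for 18 and higher for 5, against 32.3% of all genes. This held for 13 of 21 complement genes and 10 of 20 coagulation genes. The SD was larger in Mir137-/- livers for 29 of 41 members, with a median of 0.09 in Mir137-/- livers and 0.06 in Mir137+/+ livers. Over all genes the median SD was 0.13 in Mir137-/- livers and 0.11 in Mir137+/+ livers. Within the Mir137-/- arrays, replicate 2 was the lowest for 16 of 41 members and the highest for 12. Within the Mir137+/+ arrays, replicate 2 was the lowest for 19 and replicate 1 the highest for 18. Mir137-/- replicate 2 was the lowest of its group for C8a, F11, Mbl2, Masp1 and C4bp, and the highest for C9, Mbl1, C2 and F12.

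**Figure D4:**
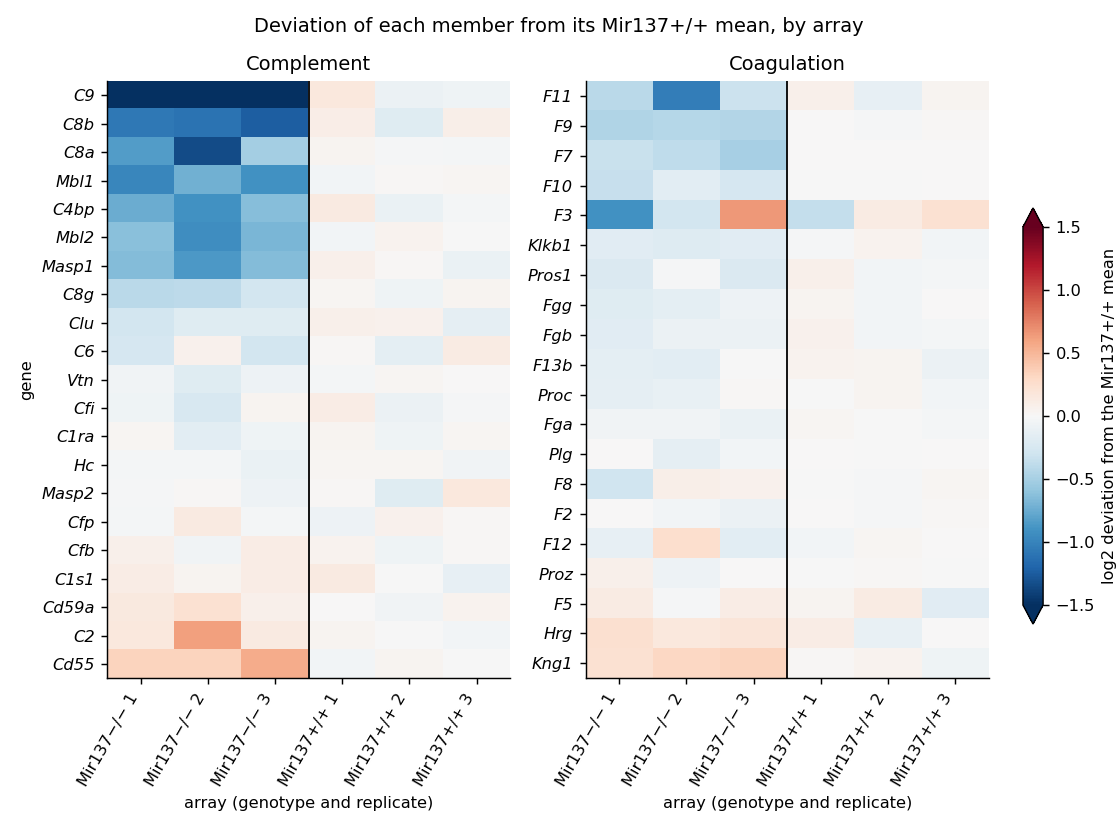
Deviation of each gene on each array from the gene's mean over the Mir137+/+ arrays (log2, in colour: blue lower, red higher), Mir137-/- arrays on the left and Mir137+/+ arrays on the right of each panel. The colour scale ends at 1.5 either way, short of the deviations of C9, and Mir137-/- replicate 2 departs from its group for C8a, F11 and C2.

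The 7 calls were then recomputed without the arrays that stood apart. Leaving out Mir137+/+ replicates 2 and 3, which carried Xist, left a single wild-type liver, whose spread was assumed to be that of the knockout livers, and kept 2 of the 7 calls, C9 and C8b. Against that array alone the mean of the Mir137-/- livers differed by -2.24 for C9, -1.23 for C8b, -0.94 for C8a, -0.89 for C4bp, -0.83 for Mbl1, -0.79 for Masp1 and -0.70 for Mbl2. All 7 stayed negative and past 1.5-fold. When Xist-based sex entered the fit as a term, 5 calls were kept, and C8a (-0.94, adjusted p = 0.165) and Mbl2 (-0.70, adjusted p = 0.0763) were lost. No Mir137-/- array carried Xist, so this fit too compared the Mir137-/- livers with Mir137+/+ replicate 1 alone and gave the same differences. Only its estimate of spread drew on the arrays with Xist, so it is no separate check on sex. Leaving out replicate 2 of both genotypes, the arrays with pancreatic markers, also kept 5, and C8a (-0.68, adjusted p = 0.0722) and Masp1 (-0.64, adjusted p = 0.0532) were lost. Leaving out Mir137-/- replicate 1, the array with muscle markers, kept 6 and lost C8a.

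Several members lie beside or near each other in the genome. C8b and C8a are neighbours on chromosome 4 with 11130 bases and no protein-coding gene between them, and both were lower (-1.14 and -0.90). In no other pair of neighbours were both genes called. Cd55 and C4bp on chromosome 1, 170911 bases apart with 1 protein-coding gene between them, gave 0.41 and -0.76. F7, F10 and Proz follow each other on chromosome 8 at -0.40, -0.25 and 0.00, and F11 and Klkb1, 4632 bases apart on that chromosome, gave -0.59 and -0.18. Cfb and C2 on chromosome 17 are separated by 87 bases and gave 0.05 and 0.30.

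Further genes of both systems, listed with results of these data known, were read in the same fit. Of 22 other complement genes measured (of 30 listed), none was higher and 1 was lower. This was Cfhr3, a factor H-related gene with a low signal of 3.38 ± 0.17 in Mir137-/- livers and 4.02 ± 0.18 in Mir137+/+ livers (SD, n = 3 each, difference -0.63). The median over this list was -0.04, and C1qa, C1qb and C1qc, which macrophages express, differed by -0.13, -0.08 and 0.01. Of 24 other coagulation and fibrinolysis genes (of 29 listed), 1 was higher and 2 were lower, with a median of 0.04. Anxa2, a cell-surface assembly site for plasminogen and its activator, was higher at 9.43 ± 0.17 in Mir137-/- livers and 8.63 ± 0.04 in Mir137+/+ livers (0.80). Tfpi2, a Kunitz-type protease inhibitor, was lower at 8.59 ± 0.21 in Mir137-/- livers and 9.44 ± 0.08 in Mir137+/+ livers (-0.84). A2m, the gene of the broad protease inhibitor alpha-2-macroglobulin, was lower at 4.71 ± 0.65 in Mir137-/- livers and 5.92 ± 0.25 in Mir137+/+ livers (-1.21). Of 9 genes of the vitamin K cycle and of factor secretion (of 10 listed), 1 was called. This was Nqo1, a quinone reductase, which was higher (0.70), while Ggcx, the carboxylase of the vitamin K-dependent factors, differed by -0.25 and Vkorc1, which recycles the vitamin, by -0.18.

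Other liver-made plasma proteins and the regulators of such genes were read beside the members. Of 27 other hepatocyte plasma proteins, 4 were lower, none was higher, and the median was -0.01. They were the acute phase genes Orm1 and Lrg1 (-1.13), Mug1 (-2.04), a murinoglobulin whose signal can include its paralog Mug2, and Serpina6 (-0.95), the corticosteroid carrier. Orm1 measured 2.39 to 3.08 in Mir137-/- livers and 6.32 to 7.34 in Mir137+/+ livers. Its knockout values lay below the lower quartile of every array (3.41 to 3.47), so the size of its difference is not well set. Of 21 transcription and cytokine regulators, 4 were lower and none was higher, with a median of -0.26. The interleukin receptors Il6ra and Il1r1 differed by -0.73 and -0.80, Cebpb, a transcription factor of the acute phase response, by -0.68, and Nr1h4, the bile acid receptor, by -0.78.

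Markers of other cells moved with the genotypes in some lists. Of 8 neutrophil and monocyte markers, 6 were called lower in Mir137-/- livers, and the median of the list was -1.54. The 6 were Ngp (-2.03), Mpo (-1.92), S100a9 (-1.71), S100a8 (-1.57), Camp (-1.51) and Ltf (-1.22). Of the markers not called, Elane differed by -0.70, while the monocyte marker Ccr2 went the other way by 0.25. The log2 of the summed signal of all 8 was 9.73 to 10.39 in Mir137-/- livers and 11.39 to 11.82 in Mir137+/+ livers. No marker of these lists was at 0, since the array values have no true zero. None of 10 Kupffer cell markers was called, and their summed signal was 13.12 to 13.23 in Mir137-/- livers and 13.03 to 13.09 in Mir137+/+ livers. Of 9 platelet markers 1 was called lower, Ppbp (-2.44), and all 9 differences were negative with a median of -0.30. Of 10 stellate cell and fibroblast markers 1 was called lower, Lrat (-0.67). The lists for endothelium, bile duct, red cells, fat, pancreas, muscle and kidney held no call. The part of these cells in the 7 lower transcripts was not tested. The hepatocyte markers summed to 16.19 to 16.24 in Mir137-/- livers and 16.24 to 16.25 in Mir137+/+ livers. That sum mostly reflects the brightest markers, such as Alb, which lay near the highest value of the arrays. Single hepatocyte markers ran from -0.46 for Tdo2 to 0.29 for Apob, with 5 differences negative and 4 positive.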

How the data were processed

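Liver total RNA from 3 Mir137-/- and 3 Mir137+/+ mice was hybridised to Affymetrix mouse arrays, 1 mouse per array, and the replicates are separate mice per the labels. The authors deposited normalised log2 values for each probe set. The submitters' processing notes name GCRMA with no version, whereas the study's methods describe RMA with a baseline set to the mean, so the summary method behind the values is unsettled and low values in particular depend on it. The number of arrays limits the precision. The table held 45101 probe sets, of which 64 were controls, and 34945 of the others named 1 gene in the platform annotation. Each of 18193 genes was represented by its brightest probe set over the 6 arrays. Differences (Mir137-/- minus Mir137+/+) were estimated with limma 3.58.1 in R 4.3.3, with Benjamini-Hochberg adjustment over all genes, and were called at an adjusted p below 0.05 and more than 1.5-fold. Single probe sets were fitted likewise over all 45037. The same code was first tested on simulated data holding known changes.

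The members, lists and tests were chosen with earlier results of these data known. Each called member, and the member with the largest difference in each step without a call, was given on every array, as were members whose probe sets disagreed. From the other lists the called genes were named. C1s was matched to C1s1 by synonym. The alternatives concerned normalisation, the choice of probe set, the filter on dim probe sets, the test, the thresholds, the replicate block, sex and single arrays.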

Additional observations from a re-analysis of the deposited data

How the results depend on the processing

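The 4 counts and 41 differences were recomputed under 24 alternatives. The 7 lower complement genes became 6 to 7 when 1 array was left out, 2 without the arrays with Xist and 1, C9, when the test was made against 1.5-fold itself. Without the fold threshold 1 complement gene was higher and 2 coagulation genes were lower, and at an unadjusted p with the fold threshold kept 1 coagulation gene, F11, was lower. C9 was called in 23 of 23 alternatives (-2.31 to -1.94), C8b in 22 (-1.25 to -1.09) and C8a in 14 (-1.09 to -0.67). Of 953 single values, 31 changed sign. Those of Masp1 (0.33), Cd55 (-0.0133), F10 (0.0933), Cfp (-0.06) and Proz (-0.0467) did so with the second brightest probe set, and Cd55 (-0.04), Cfp (-0.0167) and Proz (-0.0217) with the mean of all probe sets. With sex as a term, and without the Xist arrays, C1s1 gave -0.0433, Cfb -0.00333, F3 0.18 and F12 0.03. Quantile normalisation gave Masp2 0.0133 and F12 0.00861, and median centring gave Proz -0.01. Leaving out 1 array gave ranges of -0.12 to 0.055 for Masp2, -0.0267 to 0.0583 for Cfp, -0.59 to 0.19 for F3, -0.12 to 0.0767 for F8, -0.14 to 0.065 for F12, -0.0133 to 0.14 for F5 and -0.035 to 0.045 for Proz. The replicate block left 7 lower complement genes and 0 called coagulation genes. Same-numbered arrays correlated at 0.10, 0.23 and 0.03 in their deviations, Mir137-/- replicate 3 correlated best with another number, and the numbers were not taken to pair the mice. The cause of these changes was not tested. Signals near the low end of the array limit what can be read for Orm1, Cfhr3 and A2m.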
